A study of Homo sapiens with 30 samples.

Results

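The UDP-glucuronosyltransferases of subfamily 2B that act on androgens and related compounds were described across all conditions of the study. The members were chosen by name and are UGT2B7, UGT2B10, UGT2B11, UGT2B15, UGT2B17 and UGT2B28, which are 6 of the 23710 gene symbols in the count files. These enzymes sit in the membrane of the endoplasmic reticulum and transfer glucuronic acid from UDP-glucuronic acid to a small molecule, which makes it more soluble and easier to export. In prostate cells, conjugation of dihydrotestosterone (DHT) and its metabolites makes them inactive as hormones, and UGT2B15 and UGT2B17 are the members best known for it. Androgens are known to repress UGT2B15 and UGT2B17 in LNCaP-derived cells.

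RNA-seq was performed on 30 samples of 2 prostate cancer cell lines in 10 conditions, with 3 replicates each. V16D is a castration-resistant line derived from LNCaP xenografts, and MR49F is its enzalutamide-resistant derivative. All conditions therefore share the LNCaP background, and each line stands for a single derivation. Enzalutamide is an antiandrogen drug, DHT is the most potent natural androgen, and JQ-1 is an inhibitor of BET bromodomain proteins.

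In full serum, V16D and MR49F cells received DMSO vehicle or 10 µM enzalutamide for 24 h, after a period without drug. In charcoal-stripped serum, which is depleted of steroids, MR49F cells were kept for 72 h. They then received vehicle, 10 µM enzalutamide, 1 nM DHT or 500 nM JQ-1 for 24 h, or JQ-1 combined with either enzalutamide or DHT. The labels do not say whether replicates came from separate cultures, and the p-values given here reflect the spread among these samples alone, which may be technical.

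All 6 genes lie on chromosome 4 within a single cluster (GRCh37, GENCODE 44). UGT2B17 spans chr4:69402891-69442131 on the minus strand and UGT2B15 spans chr4:69512315-69536370 on the same strand. UGT2B10 spans chr4:69681712-69697741 and UGT2B7 spans chr4:69917081-69978705, both on the plus strand. UGT2B11 spans chr4:70065669-70080466 on the minus strand, and UGT2B28 spans chr4:70146193-70160768 on the plus strand. The transcripts are close in sequence. Of all stretches of 50 bases, the read length, 26.7% of UGT2B15 were also present in another UGT gene, and each of these 557 stretches was shared with UGT2B17. The share was 40.5% for UGT2B11, 35.2% for UGT2B28, 23.2% for UGT2B17, 22.0% for UGT2B10 and 6.74% for UGT2B7, and UGT2B11 and UGT2B28 had 369 stretches in common.

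The promoters of UGT2B15, UGT2B11 and UGT2B10 are shown because the first 2 genes moved in opposite directions with DHT, while the third is the closest match to UGT2B11. Each is the 250 bases before the RefSeq start site (GRCh38.p14), 5′ to 3′ on the strand of the gene. The intervals are chr4:68670653-68670902 (minus strand) for UGT2B15, chr4:69214749-69214998 (minus strand) for UGT2B11 and chr4:68815744-68815993 (plus strand) for UGT2B10. Capitals mark matches to the forkhead motifs TGTTTAC and TATTTAC, each searched on both strands.
UGT2B15: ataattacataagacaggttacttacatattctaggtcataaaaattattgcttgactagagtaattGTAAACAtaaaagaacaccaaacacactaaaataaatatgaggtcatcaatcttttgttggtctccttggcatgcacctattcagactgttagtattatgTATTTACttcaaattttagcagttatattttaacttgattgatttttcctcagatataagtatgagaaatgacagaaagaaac
UGT2B11: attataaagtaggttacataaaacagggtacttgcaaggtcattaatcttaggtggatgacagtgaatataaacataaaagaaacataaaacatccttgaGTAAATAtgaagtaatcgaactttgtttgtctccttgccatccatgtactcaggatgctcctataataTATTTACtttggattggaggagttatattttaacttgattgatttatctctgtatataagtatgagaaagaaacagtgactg
UGT2B10: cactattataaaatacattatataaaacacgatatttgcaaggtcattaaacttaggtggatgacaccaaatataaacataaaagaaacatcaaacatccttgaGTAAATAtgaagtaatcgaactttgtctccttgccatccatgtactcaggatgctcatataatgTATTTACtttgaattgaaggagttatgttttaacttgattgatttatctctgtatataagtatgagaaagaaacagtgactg

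RefSeq promoters were matched for 4 of the 6 members. The UGT2B15 promoter held TGTTTAC on the opposite strand at bases -183 to -177. It also held TATTTAC at bases -83 to -77. UGT2B11 and UGT2B10 had TATTTAC on both strands and no TGTTTAC in this window. The promoters of UGT2B10 and UGT2B11 were identical at 93.1% of 246 aligned bases, and those of UGT2B15 and UGT2B11 at 80.5% of 231. The HNF1 hexamer GTTAAT was also searched and was in none of these windows or in that of UGT2B7. Among 35116 promoters of this length, 2.98% held TGTTTAC, 2.40% held TATTTAC and 6.23% held GTTAAT. These matches are letters in a window and not measured binding.

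Each sample has a file of read counts per gene and a file of FPKM (fragments scaled to transcript length and mapped reads) per transcript. The FPKM of a gene's transcripts were summed here. Total counts on genes were 13170504 to 21154962 in full serum but 982130 to 1813262 in stripped serum, which was 73.0% to 77.8% and 5.13% to 7.66% of the uniquely aligned reads. The numbers of uniquely aligned reads were alike (medians 21782259 and 22195177), and the reason for the low share in stripped serum was not tested. How strand was handled in counting is not given in the sources used here, so it is not known whether the stripped-serum counts are of a gene's own strand, and every count there is read with that limit. The 3 basal and 2 immune markers stayed under 1 FPKM in every sample. The hepatocyte markers, 2 of 5 of them under 1 FPKM in every sample, summed to 0.775 to 4.14 FPKM and the 2 stromal markers to 0.616 to 1.79. As a check on treatment, KLK3, which encodes prostate-specific antigen, was taken alone and does not stand for other luminal genes. It fell from 509 ± 8.74 to 132.5 ± 2.35 FPKM (SD, n = 3) with enzalutamide in V16D and rose from 283 ± 6.14 to 1258 ± 61.0 with DHT in stripped serum.

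The members were counted unequally, and the reason was not tested. The shares of common sequence given above do not cover the repeated entries of a gene named below. In full serum the count of the median gene was 116% of the reads that its FPKM implies. For UGT2B15 it was 0.957%, with 3 reads counted in 12 samples against 313 implied. For UGT2B11, UGT2B17 and UGT2B28 it was 54.1%, 56.8% and 54.2%. In stripped serum the median gene was at 9.76%, UGT2B28 at 10.5%, UGT2B11 at 3.51%, UGT2B17 at 3.18% and UGT2B15 at 0. The FPKM files list UGT2B15 and UGT2B17 as 2 entries each and UGT2B10 as 7 entries, which are numbered copies of 1 transcript or of 2. The count of a member is therefore a sparse measure, and its FPKM may hold reads that belong to a paralog. How much of a member's FPKM came from a paralog was not tested.

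Depth also limits the FPKM. At the median depth 1 FPKM of a member corresponds to 40.5 to 61.2 reads, so that 0.1 FPKM rests on a handful of reads. UGT2B11, UGT2B15, UGT2B17 and UGT2B28 reached 1 FPKM in at least 3 of the 30 samples and were tested on log2(FPKM + 1) with limma, among 13532 genes. Each passed only through the conditions in which it was high. These were the conditions with DHT for UGT2B28, those with DHT or JQ-1 for UGT2B11, stripped serum with vehicle or enzalutamide for UGT2B17, and V16D with enzalutamide and stripped serum with vehicle for UGT2B15. Differences between these conditions and the rest were thus favoured by the filter, and the numbers of members called are given as descriptions. UGT2B7 and UGT2B10 did not pass. A difference on this scale understates the change of such low genes.

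Across conditions the 4 tested members split into 2 pairs, UGT2B15 with UGT2B17 and UGT2B11 with UGT2B28. UGT2B17 was highest in stripped serum with vehicle, UGT2B15 in V16D with enzalutamide followed by stripped serum with vehicle, while UGT2B11 and UGT2B28 were highest with DHT. Over the 10 condition means of log2(FPKM + 1), centred within line and serum, Pearson's r was 0.95 between UGT2B15 and UGT2B17 and 0.98 between UGT2B11 and UGT2B28. It was -0.69 between UGT2B11 and UGT2B17 and -0.53 between UGT2B15 and UGT2B28. These are descriptions over 10 points, which share libraries and, within each pair, transcript sequence.

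**Figure D1:**
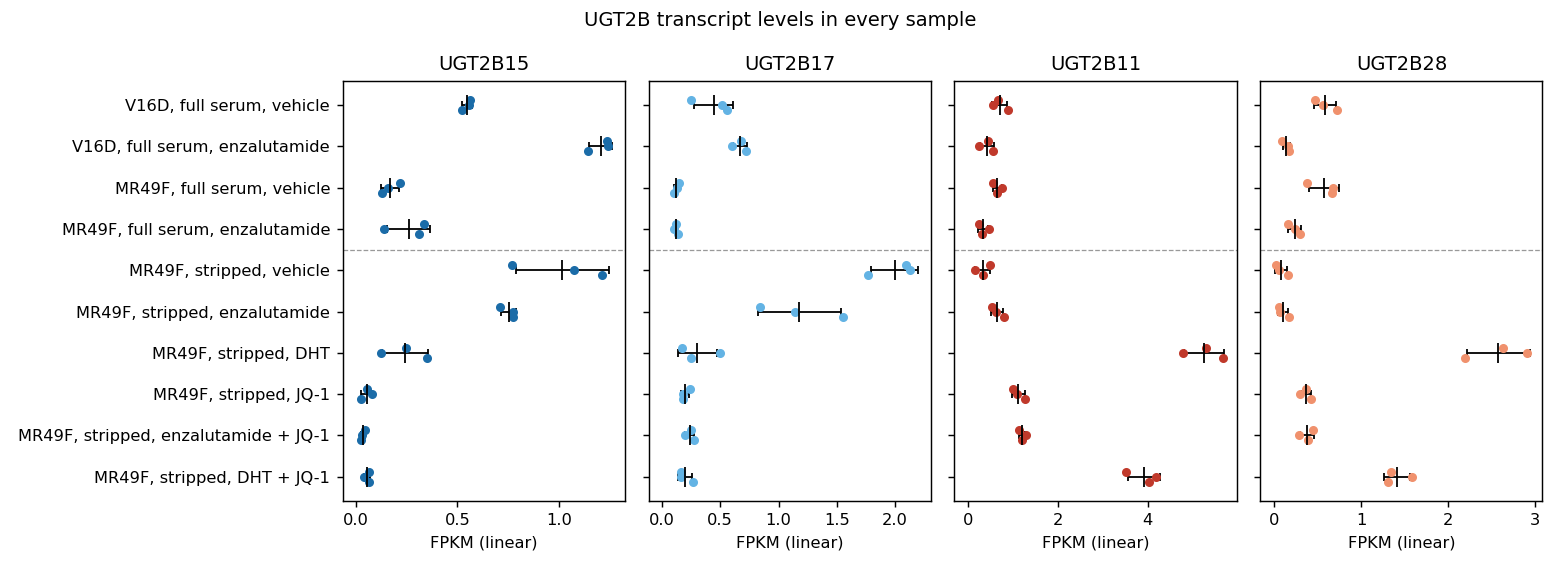
FPKM (linear axis, a separate range for each gene) of UGT2B15, UGT2B17, UGT2B11 and UGT2B28 in the 30 samples, by condition. Points are samples, the vertical tick is the mean of 3 and the bar its SD. The dashed line parts full from stripped serum, and the highest points are near 1.24 for UGT2B15, 2.13 for UGT2B17, 5.67 for UGT2B11 and 2.91 for UGT2B28.

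UGT2B15 conjugates DHT and androstanediol, and its level rose with enzalutamide in V16D. The 3 vehicle samples had 0.562, 0.559 and 0.521 FPKM, and the 3 enzalutamide samples had 1.24, 1.24 and 1.14. The groups did not overlap, and the means differed 2.21-fold. On the log2(FPKM + 1) scale the difference was 0.51 ± 0.04 (SE; adjusted p = 0.000348, limma).

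UGT2B17, which conjugates testosterone and DHT, had 0.248, 0.517 and 0.561 FPKM in V16D with vehicle and 0.679, 0.602 and 0.719 with enzalutamide. The groups did not overlap, with replicate 1 of vehicle the lowest, but the difference of 0.22 ± 0.09 did not pass (adjusted p = 0.140, limma). Its counts were 5, 18 and 16 with vehicle and 24, 19 and 23 with enzalutamide, a log2 fold change of 0.64 ± 0.30 (SE; adjusted p = 0.0812, edgeR). Without single samples the change on counts lay between 0.28 and 0.91, and it passed only without vehicle replicate 2 (adjusted p = 0.0421, up to 0.54 without others).

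UGT2B28, whose activity on androgens is weak, fell in the same comparison. It had 0.468, 0.568 and 0.720 FPKM with vehicle and 0.0981, 0.158 and 0.171 with enzalutamide, with no overlap. The difference was -0.47 ± 0.07 (SE; adjusted p = 0.00451, limma), and the vehicle mean was 4.11-fold higher. Counts ran the same way, at 6, 16 and 16 against 0, 4 and 4, too few for the test with all samples. Without V16D vehicle replicate 1 or any 1 of the enzalutamide samples it passed the filter and was called, at log2 fold changes from -2.75 to -1.67 (adjusted p up to 0.00588, edgeR). It passed that filter only through the vehicle samples, where it was high, so these calls add no independent support.

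UGT2B11, for which little enzymatic activity is established, had 0.674, 0.556 and 0.883 FPKM with vehicle and 0.454, 0.256 and 0.567 with enzalutamide. These ranges overlapped, and the difference of -0.26 ± 0.11 did not pass (adjusted p = 0.125, limma). In all, 2 of the 4 members tested on FPKM were called, 1 higher and 1 lower, where 28.8% of all 13532 genes were called, 16.9% higher and 11.9% lower. On counts 0 of the 2 members tested with edgeR were called, 1 of them at an unadjusted p under 0.05, where 37.5% of 14079 genes were. DESeq2 called 0 of the members as well.

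In MR49F with full serum, enzalutamide changed no member past the threshold. UGT2B15 had 0.215, 0.155 and 0.130 FPKM with vehicle and 0.333, 0.137 and 0.309 with the drug, which overlapped. UGT2B17 stayed between 0.0987 and 0.145 FPKM in all 6 samples. UGT2B28 had 0.376, 0.681 and 0.664 against 0.163, 0.243 and 0.306, without overlap, at a difference of -0.34 ± 0.09 (SE; adjusted p = 0.109, limma). Without vehicle replicate 1, the lowest of its group, this became -0.44 with an adjusted p of 0.029, against up to 0.281 without other samples. UGT2B11 had 0.555, 0.753 and 0.648 against 0.236, 0.466 and 0.320, also without overlap, at -0.30 ± 0.08 (adjusted p = 0.101). Its counts were 10, 19 and 14 against 5, 13 and 10, at -0.93 ± 0.32 (adjusted p = 0.104, edgeR), and without single samples between -1.22 and -0.76, passing only without vehicle replicate 1 (adjusted p = 0.0408, up to 0.298 without others).

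UGT2B28 had too few counts to be tested with all samples. Without vehicle replicate 1 it passed the filter, through the remaining vehicle samples in which it was high, and was called at -1.82 (adjusted p = 0.0012, edgeR). Without any 1 of the enzalutamide samples it was tested and not called (adjusted p 0.121 to 0.185). These counts of members, 0 of 4 on FPKM and 0 of 1 on counts, stand against 4.32% and 8.48% of all genes. At an unadjusted p under 0.05 there were 2 members on FPKM with limma and 1 on counts with edgeR. DESeq2 gave UGT2B11, the 1 member in its fit, no adjusted p (unadjusted p = 0.0515). The lower value of UGT2B28 and UGT2B11 with enzalutamide was seen in the means of both lines. Only for UGT2B15 did the response differ between the lines by the test of the difference itself, at -0.40 ± 0.09 on log2(FPKM + 1) (MR49F minus V16D; adjusted p = 0.0202, limma). With a pseudocount of 0.1 the call was lost, at -0.62 (adjusted p = 0.330). It was also lost without V16D enzalutamide replicate 1 (adjusted p = 0.0547), enzalutamide replicate 2 (0.0568) or vehicle replicate 3 (0.0536). It was 1 of 4 members, where 6.06% of genes were called. On counts 0 of 3 members were called by edgeR, and 0 had an unadjusted p under 0.05, where 6.95% of genes were called. DESeq2 called neither UGT2B11 nor UGT2B17 and gave UGT2B28 no adjusted p.

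The lines also differed before treatment. UGT2B15 and UGT2B17 were lower in MR49F than in V16D, by 3.28-fold and 3.57-fold in mean FPKM, and the vehicle samples quoted above did not overlap for either. The differences were -0.41 ± 0.05 (adjusted p = 0.000734, limma) and -0.35 ± 0.09 (adjusted p = 0.0177). For UGT2B17 the call was lost without MR49F vehicle replicate 3 (adjusted p = 0.0503), V16D vehicle replicate 2 (0.0585) or V16D vehicle replicate 3 (0.0537). Its counts were 3, 5 and 2 in MR49F against 5, 18 and 16, too few for the test on counts. Without any 1 of MR49F vehicle replicates 1, 2 and 3 or V16D vehicle replicate 1 it passed the filter and was called, at log2 fold changes from -2.13 to -1.60 (adjusted p up to 0.0311, edgeR), again through the V16D samples in which it was high.

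UGT2B11 and UGT2B28 had overlapping levels in the 2 lines, at 0.652 ± 0.0994 and 0.574 ± 0.172 FPKM in MR49F against 0.704 ± 0.166 and 0.585 ± 0.127 in V16D (SD, n = 3). Calls were made for 2 of 4 members on FPKM, both lower, where 60.1% of all genes were called and 28.5% were lower. On counts edgeR called 0 of 2, with 0 at an unadjusted p under 0.05, and DESeq2 called 0, where edgeR called 63.7% of genes. This comparison is of 1 derivative with 1 parental line, so that resistance and other differences between the lines cannot be told apart.

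In stripped serum the order of the members changed. In MR49F with vehicle, UGT2B17 was highest, at 2.095, 2.13 and 1.76 FPKM, followed without overlap by UGT2B15, at 0.767, 1.08 and 1.21. UGT2B11 had 0.487, 0.150 and 0.336 FPKM and UGT2B28 had 0.0236, 0.0552 and 0.159, and these neighbours overlapped. In MR49F with vehicle in full serum UGT2B11 and UGT2B28 led, with overlap, at the values given above. In V16D with vehicle UGT2B11, UGT2B28, UGT2B15 and UGT2B17 followed each other with overlap at each step. The 2 serum conditions were separate experiments with unlike counting, so their baseline levels were set side by side and not tested, and serum and experiment cannot be told apart.

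DHT turned this order around, with UGT2B11 and UGT2B28 rising and UGT2B15 and UGT2B17 falling. UGT2B11 went from the vehicle values above to 5.30, 4.77 and 5.67 FPKM, a 16.2-fold higher mean and a difference of 2.24 ± 0.11 (SE; adjusted p = 3.19e-05, limma). UGT2B28 went to 2.62, 2.91 and 2.19 FPKM, 32.5-fold higher, at 1.73 ± 0.09 (adjusted p = 3.79e-05). Neither gene's DHT samples overlapped with its vehicle samples.

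UGT2B17 fell to 0.170, 0.496 and 0.244 FPKM with DHT. Its vehicle mean was 6.57-fold higher, and the difference was -1.21 ± 0.10 (adjusted p = 0.000253, limma). UGT2B15 fell to 0.247, 0.122 and 0.350 FPKM, with a vehicle mean 4.25-fold higher and a difference of -0.70 ± 0.11 (adjusted p = 0.00227). Again neither gene's groups overlapped. The 4 members tested were all called, 2 in each direction, where 66% of genes were, 25.9% higher and 40% lower, so that a call alone hardly parts the members from other genes. The same 4 were called without the filter on low FPKM.

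The stripped-serum counts, whose strand is not known, are given beside the FPKM and not as support for it. UGT2B28 had 1, 1 and 0 counts with vehicle and 15, 17 and 11 with DHT, a log2 fold change of 4.30 ± 0.62 (SE; adjusted p = 4.73e-06, edgeR). Relative to all counted reads this was a ratio of 21.4 (exact 95% interval of the counting error 5.56 to 182). It was the 1 member tested and was called, where 37.5% of 11004 genes were, and it passed the filter only through the DHT samples.

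UGT2B11 had 1, 0 and 1 counts with vehicle and 4, 5 and 12 with DHT, a ratio of 10.4 (2.55 to 91.7). UGT2B17 had 6, 3 and 2 counts with vehicle and 0, 1 and 0 with DHT, and the ratio of vehicle to DHT was 11.1 (1.61 to 477). Neither passed the filter on low counts. UGT2B15 had 0 counts in every sample of stripped serum, so its change rests on FPKM alone.

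**Figure D2:**
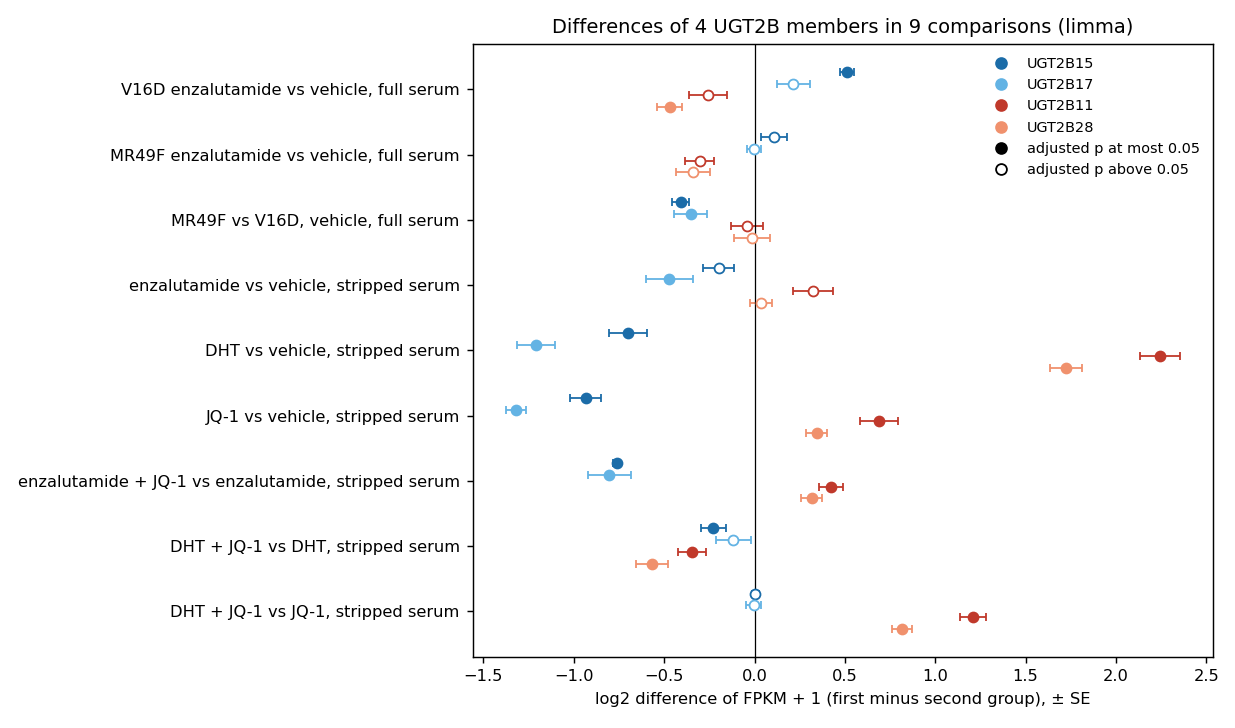
Difference of log2(FPKM + 1) between the first and second group named, with its SE, for 4 members in 9 comparisons of 3 against 3 samples (limma). Filled points have an adjusted p of at most 0.05. DHT gave the largest positive values plotted, 2.24 for UGT2B11 and 1.73 for UGT2B28, and JQ-1 the most negative, -1.32 for UGT2B17.

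Enzalutamide in stripped serum moved UGT2B17 the way DHT did, by less. UGT2B17 had 0.841, 1.14 and 1.55 FPKM with enzalutamide, all below the vehicle samples, at a difference of -0.47 ± 0.13 (SE; adjusted p = 0.0405, limma). The call was lost without any 1 of 5 of the 6 samples, namely enzalutamide replicate 1 (adjusted p = 0.0679) or 2 (0.105) or vehicle replicate 1 (0.113), 2 (0.111) or 3 (0.0633). It was 1 of 4 members, where 32.4% of genes were called and 16% were lower. UGT2B11 had 0.534, 0.615 and 0.801 FPKM, above the vehicle samples, at 0.32 ± 0.11 (adjusted p = 0.0754), and without vehicle replicate 1 at 0.41 (adjusted p = 0.049, up to 0.177 without other samples).

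UGT2B15 had 0.710, 0.774 and 0.773 FPKM, which overlapped with vehicle, at -0.20 ± 0.09 (adjusted p = 0.134, limma). Without vehicle replicate 1, the lowest of the 3, it was -0.29 with an adjusted p of 0.0121, against up to 0.281 without other samples. UGT2B28 had 0.0639, 0.0740 and 0.178 FPKM, at 0.03 ± 0.06 (adjusted p = 0.712). On counts no member passed the filter, where 7.26% of genes tested were called.

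Against enzalutamide, DHT gave higher UGT2B11 (8.07-fold in mean FPKM) and UGT2B28 (24.5-fold), at 1.92 ± 0.08 (adjusted p = 4.69e-05, limma) and 1.69 ± 0.08 (adjusted p = 7.89e-05). UGT2B17 was 3.88-fold and UGT2B15 3.14-fold higher with enzalutamide, at -0.74 ± 0.15 (adjusted p = 0.00993) and -0.50 ± 0.07 (adjusted p = 0.00244) for DHT minus enzalutamide. All 4 were called, where 51.5% of genes were, 17.9% higher and 33.6% lower. On counts UGT2B28, with 0, 1 and 2 in enzalutamide, was the 1 member tested and was called at 3.78 ± 0.61 (adjusted p = 0.000119, edgeR), where 19.4% of genes were. DHT was given at 1 nM and enzalutamide at 10 µM, so these are differences between the treatments as given.

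In MR49F the enzalutamide response of 3 members differed between the 2 sera by the test of the difference. It was 0.63 ± 0.14 for UGT2B11 (stripped minus full; adjusted p = 0.00773, limma), 0.38 ± 0.12 for UGT2B28 (adjusted p = 0.0381) and -0.47 ± 0.14 for UGT2B17 (adjusted p = 0.0273). For UGT2B15 it was -0.31 ± 0.12 (adjusted p = 0.0768), and it passed without stripped vehicle 1 (0.0157) or full-serum enzalutamide 2 (0.037). These are 3 of 4 members, where 33.1% of genes were called. UGT2B11 and UGT2B28 were called in neither serum alone. The sera were separate experiments with unlike counting, so serum and experiment cannot be told apart here either. On counts UGT2B17 was the 1 member tested and was not called, at an unadjusted p of 0.606, where 11.4% were. With a pseudocount of 0.1 the calls for UGT2B17 (adjusted p = 0.0652) and UGT2B28 (0.0756) were lost, and with a replicate block that for UGT2B17 was (0.0754). Only the call for UGT2B11 held without each sample in turn. That for UGT2B17 was lost in 5 of 12 such fits (adjusted p up to 0.062) and that for UGT2B28 in 8 (up to 0.086). The samples whose loss removed it were, for UGT2B17, stripped vehicle 1 and 2, stripped enzalutamide 2 and full-serum enzalutamide 1 and 3. For UGT2B28 they were stripped vehicle 1 and 2, stripped enzalutamide 2 and 3, full-serum enzalutamide 1 and 2 and full-serum vehicle 2 and 3.

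JQ-1 alone lowered UGT2B15 and UGT2B17. UGT2B15 had 0.0542, 0.0760 and 0.0247 FPKM with JQ-1, and the vehicle mean was 19.7-fold higher, a difference of -0.93 ± 0.09 (SE; adjusted p = 0.000267, limma). UGT2B17 had 0.238, 0.179 and 0.182 FPKM, with a vehicle mean 10.0-fold higher, at -1.32 ± 0.05 (adjusted p = 1.76e-05). Its counts were 0 in all 3 JQ-1 samples. Against a floor of 3 counts over the group the ratio of vehicle to JQ-1 was 4.31. This ratio has no interval for the counting error and is not a lower limit.

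UGT2B11 was higher with JQ-1, at 0.998, 1.10 and 1.28 FPKM, 3.47-fold in the mean and 0.69 ± 0.10 (adjusted p = 0.00206, limma). UGT2B28 was listed at 0.373, 0.304 and 0.428 FPKM, 4.64-fold higher, at 0.34 ± 0.06 (adjusted p = 0.00300). The counts of UGT2B28 did not show this. It had 0 counts in each of the 3 JQ-1 samples and in each of the 3 samples with enzalutamide and JQ-1, against 1, 1 and 0 with vehicle. Its FPKM implied 47.8, 39.0 and 10.1 reads in the 3 conditions. Over all stripped-serum samples only 10.5% of the reads implied for UGT2B28 were counted, and 9.76% for the median gene. Few counts were thus to be had in any of these conditions. UGT2B11 had 0, 3 and 2 counts with JQ-1. Whether reads of UGT2B11 entered the FPKM of UGT2B28 there was not tested. All 4 members were called on FPKM, 2 in each direction, where 69.3% of genes were, 29.3% higher and 40% lower. No member passed the filter on counts, where 46.6% of genes tested were called.

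Adding JQ-1 to enzalutamide gave the same directions. UGT2B15 had 0.0445, 0.0310 and 0.0227 FPKM, and the mean with enzalutamide alone was 23.0-fold higher, at -0.76 ± 0.02 (adjusted p = 6.29e-06, limma). UGT2B17 had 0.244, 0.196 and 0.274 FPKM, at -0.80 ± 0.12 (adjusted p = 0.00189). UGT2B11 had 1.14, 1.28 and 1.20 FPKM, at 0.42 ± 0.06 (adjusted p = 0.00215), and UGT2B28 had 0.449, 0.290 and 0.389 FPKM, at 0.32 ± 0.06 (adjusted p = 0.00461). No group overlapped with enzalutamide alone, and 4 of 4 members were called, 2 in each direction, where 70.3% of genes were, 28.3% higher and 41.9% lower. No member passed the filter on counts, where 45.1% of genes were called.

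With JQ-1 present, enzalutamide changed no member. The differences from JQ-1 alone lay between -0.03 and 0.06 on log2(FPKM + 1), with adjusted p from 0.401 to 0.961 (limma), and 0 of 4 members were called or had an unadjusted p under 0.05, where 12% of genes were called. No member could be tested on counts, where 4.5% were called. The difference between the enzalutamide responses with and without JQ-1 passed for UGT2B17, at 0.52 ± 0.14 (adjusted p = 0.0327), 1 of 4 members where 18% of genes were called. No member could be tested on counts, where 0.895% were. It was lost in 9 of the 12 fits that left out 1 sample (adjusted p up to 0.0729), that is for every sample except vehicle 3 and enzalutamide 1 and 3. UGT2B15 passed at 0.27 (adjusted p = 0.00489) without vehicle replicate 1.

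On FPKM, JQ-1 added to DHT brought UGT2B11 and UGT2B28 down while leaving them far above vehicle. UGT2B28 had 1.34, 1.58 and 1.31 FPKM with both agents, at -0.57 ± 0.09 against DHT alone (SE; adjusted p = 0.00212, limma). Its counts were 6, 7 and 3 against 15, 17 and 11, at -1.60 ± 0.40 (adjusted p = 0.000885, edgeR). UGT2B11 had 3.52, 4.19 and 4.03 FPKM, at -0.35 ± 0.08 (adjusted p = 0.00979, limma). Its counts of 6, 7 and 11 overlapped with those of DHT alone and did not show this fall. Without the filter on low counts the change was 0.005 ± 0.46 (adjusted p = 0.994, edgeR).

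UGT2B15 had 0.0625, 0.0380 and 0.0655 FPKM with DHT and JQ-1, at -0.23 ± 0.07 (adjusted p = 0.0261, limma). This call was lost without DHT replicate 1 (adjusted p = 0.0712) or DHT with JQ-1 replicate 1 (0.0628), 2 (0.076) or 3 (0.0614). UGT2B17 had 0.162, 0.163 and 0.264 FPKM, at -0.12 ± 0.10 (adjusted p = 0.329), and overlapped with DHT alone. Calls were made for 3 of 4 members, all lower, where 72.6% of genes were called and 40.5% were lower. On counts UGT2B28 was the 1 member tested, where 54.7% were called.

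DHT still raised UGT2B11 and UGT2B28 in the presence of JQ-1, by 3.48-fold and 3.83-fold in mean FPKM over JQ-1 alone. The differences were 1.21 ± 0.07 (adjusted p = 0.000168, limma) and 0.82 ± 0.06 (adjusted p = 0.000256). The counts were 6, 7 and 11 against 0, 3 and 2 for UGT2B11, a ratio of 4.94 (exact 95% interval 1.85 to 16.6), and 6, 7 and 3 against 0, 0 and 0 for UGT2B28. UGT2B15 and UGT2B17 did not differ past the threshold, at 0.01 ± 0.02 (adjusted p = 0.878) and -0.00 ± 0.04 (adjusted p = 0.955). So 2 of 4 members were called, both higher, where 46.8% of genes were and 15.1% were higher, and no member passed the filter on counts, where 22.1% were called.

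The DHT response with JQ-1 differed from that without it for all 4 members on FPKM. The difference of the responses was -1.03 ± 0.14 for UGT2B11 (adjusted p = 0.000235, limma) and -0.91 ± 0.11 for UGT2B28 (adjusted p = 0.000135). It was 0.71 ± 0.12 for UGT2B15 (adjusted p = 0.000849) and 1.20 ± 0.12 for UGT2B17 (adjusted p = 3.64e-05), whose levels with JQ-1 were already at or under 0.274 FPKM in every sample. Of all genes 44.3% were called. On counts UGT2B28 was the 1 member tested, and its value had the opposite sign and did not pass, at 1.10 ± 1.01 (unadjusted p = 0.278, edgeR), where 12.3% of genes were called. The groups without DHT had 0 to 1 counts a sample there.

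**Figure D3:**
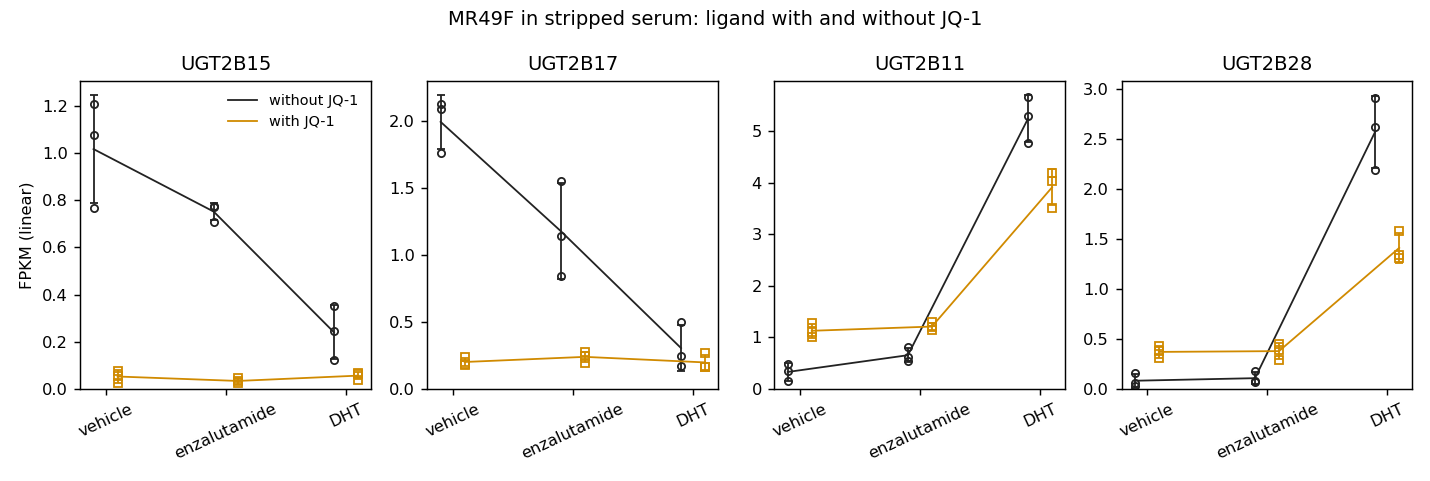
FPKM (linear axes from 0) of 4 members in MR49F cells in stripped serum with vehicle, enzalutamide or DHT, without JQ-1 (circles) and with it (squares). Lines join the means of 3 samples and bars are SD. UGT2B15 and UGT2B17 lie under 0.28 FPKM in every sample with JQ-1, while UGT2B11 and UGT2B28 rise with DHT in both series.

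UGT2B7, which conjugates opioids, bile acids and androsterone, and UGT2B10, which acts on amines such as nicotine, were close to the limit of detection. UGT2B7 ranged from 0 to 0.0985 FPKM with a median of 0.0113 over the 30 samples and was listed at 0 in all 6 samples that had JQ-1 with a ligand. UGT2B10 ranged from 0 to 0.289 FPKM with a median of 0.0778. Some of the 7 entries summed for UGT2B10 had the same mean and SD in every condition. Its level may thus hold the same estimate more than once. Together UGT2B7 and UGT2B10 had 21 counts in the whole series, 14 and 7. UGT2B10 with DHT had 0.151, 0.289 and 0.141 FPKM, above the vehicle samples at 0.104, 0.0352 and 0.0821, but its difference of 0.15 without a filter had an adjusted p of 0.0526 (limma). Against enzalutamide it was 0.17 (adjusted p = 0.0498). The smallest change of these genes that could be detected at this depth was not tested.

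The summed level of the 6 members and its makeup did not move in step. The sum was 3.52 ± 0.0672 FPKM (SD, n = 3) in stripped serum with vehicle, 8.58 ± 0.0503 with DHT and 1.81 ± 0.146 with JQ-1. UGT2B15 and UGT2B17 made up 85.7% ± 6.51 of it with vehicle, 70.3% ± 2.01 with enzalutamide, 6.33% ± 1.25 with DHT and 14.0% ± 3.26 with JQ-1. In V16D with full serum the sum was 2.45 ± 0.411 FPKM with vehicle and 2.52 ± 0.177 with enzalutamide, and the share of UGT2B15 and UGT2B17 was 40.6% ± 4.16 and 74.5% ± 4.47. In MR49F with full serum the sum was 1.73 ± 0.289 FPKM with vehicle and 1.02 ± 0.086 with enzalutamide. The share of UGT2B15 and UGT2B17 there was 17.5% ± 6.89 and 37.4% ± 12.4. In V16D the sums of the 2 groups differed by less than their spread while the shares were far apart, whereas with DHT both the sum and the share differed from vehicle.

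**Figure D4:**
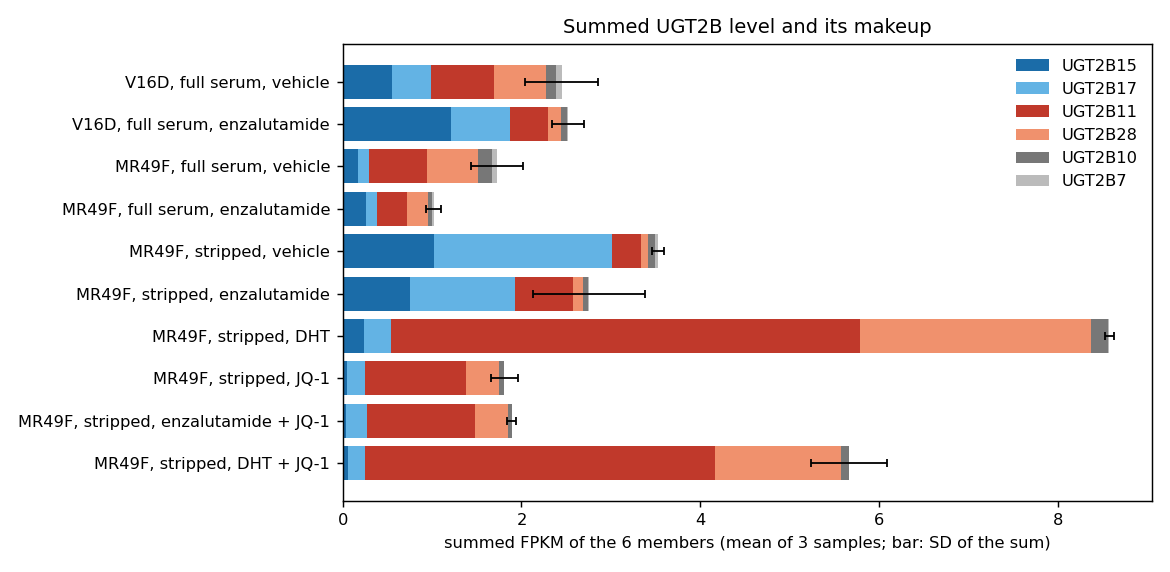
Summed FPKM (linear axis from 0) of the 6 members in each condition, stacked by member as means of 3 samples, with the SD of the sum. Blue parts are UGT2B15 and UGT2B17 and red parts UGT2B11 and UGT2B28; blue is 85.7% of the bar in stripped serum with vehicle and 6.33% with DHT.

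Other genes of androgen conjugation were taken from fixed lists and read on counts with edgeR, with the tallies on FPKM (limma) beside them. Fold changes and their p-values are of counts, and those in stripped serum carry the limit on strand given above. For DHT against vehicle, where 37.5% of genes were called on counts and 66% on FPKM, the exporters of conjugates that could be tested rose. Of 5 exporter genes 2 were tested and both rose, ABCC4 from 2.05 ± 0.150 to 43.2 ± 1.32 FPKM (SD, n = 3), a log2 fold change of 4.77 ± 0.17 (SE; adjusted p = 3.29e-17), and ABCC1 by 2.11 ± 0.10 (adjusted p = 1.37e-14). Of 10 genes that supply or use UDP-glucuronic acid 9 were tested, 3 rose and 1 fell, with a median of -0.21 against -0.01 over all genes, whereas on FPKM 3 rose and 6 fell of 9. UGDH, which makes UDP-glucuronic acid, rose from 20.5 ± 0.172 to 48.2 ± 0.570 FPKM, by 1.20 ± 0.14 (adjusted p = 1.57e-07). With JQ-1 added to DHT, UGDH fell by 1.16 ± 0.13 (adjusted p = 1.21e-09). In that comparison 4 genes of this list rose and 2 fell of 9 tested on counts, where 54.7% of all genes were called. On FPKM 4 rose and 4 fell of 9, where 72.6% were called.

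Of 20 enzymes that reduce or oxidize androgens 5 were tested with DHT and 1 rose, HSD17B4, by 0.72 ± 0.10 (adjusted p = 3.96e-06), with a median of -0.16. On FPKM 3 rose and 2 fell of 9. Of 9 genes of steroid sulfation 7 were tested and 0 were called, with a median of -0.18, and on FPKM 1 rose and 1 fell of 6. Of 16 other UGT genes only UGT8, which makes galactosylceramide, was tested, and it fell by 0.61 ± 0.18 (adjusted p = 0.0112), while on FPKM 0 of 2 were called. Of 16 factors reported to regulate UGT2B genes 11 were tested, 1 rose and 4 fell, with a median of -0.23, and on FPKM 1 rose and 6 fell of 10. POU2F1 fell by 1.22 ± 0.16 (adjusted p = 1.36e-06) and GATA2 by 0.90 ± 0.09 (adjusted p = 2.69e-08).

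With enzalutamide in V16D the exporters fell, ABCC4 by 1.72 ± 0.03 (adjusted p = 1.84e-288) and ABCC1 by 0.99 ± 0.03 (adjusted p = 1.4e-168), 2 of 3 tested. Of the UDP-glucuronic acid genes 2 rose and 3 fell of 9 tested, and UGDH rose by 0.14 ± 0.03 (adjusted p = 3.77e-05), opposite in sign to the exporters. Calls were made for 0 rising and 4 falling of 8 androgen enzymes tested, for 1 and 1 of 7 sulfation genes, for 3 and 1 of 11 factors and for 0 of 1 other UGT gene. The medians were -0.30, 0.03, 0.06 and -0.00 in that order, against 0.00 over all genes. On FPKM 2 of 2 exporters fell, and 2 rose and 3 fell of 9 UDP-glucuronic acid genes. There 0 rose and 2 fell of 9 androgen enzymes, 0 and 1 of 6 sulfation genes and 3 and 0 of 10 factors. Of other UGT genes 0 of 2 were called. The medians of these 4 lists on FPKM were 0.05, 0.04, 0.09 and 0.04, against 0.03 over all genes. Of all genes 37.5% were called on counts and 28.8% on FPKM. With JQ-1 alone 2 rose and 4 fell of 9 UDP-glucuronic acid genes on counts, where 46.6% of all genes were called. On FPKM 3 rose and 5 fell of 9, where 69.3% were called. Of the sulfation genes tested with JQ-1 alone, 1 rose and 1 fell of 6 on counts. On FPKM 1 rose and 4 fell of 6. SULT2B1, a steroid sulfotransferase, fell by 2.90 ± 0.42 (adjusted p = 1.25e-07). Before treatment 2 other UGT genes were tested between the lines, and 1 was called higher in MR49F and 1 lower, on counts and on FPKM. Of all genes 63.7% were called on counts and 60.1% on FPKM. UGT1A1, the bilirubin-conjugating enzyme, was higher in MR49F than in V16D, at 1.36 ± 0.121 against 0.128 ± 0.0803 FPKM. Its log2 fold change was 3.50 ± 0.36 (adjusted p = 5.30e-06). The exons at the end of the UGT1A genes are shared, so which of them gave these reads is uncertain.

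The genes whose pattern over the 10 conditions was most like each member were named from 8890 genes that averaged at least 5 FPKM. They were ZNF706, GYS1 and NUPL1 for UGT2B11 (Pearson's r 0.99, 0.99 and 0.98) and TRAM1, PCTP and ZNF706 for UGT2B28 (each 0.99). For UGT2B15 they were WNT5A, CRYZ and FTO (each 0.98), and for UGT2B17 they were ZNF462, RMDN1 and MUL1 (0.99, 0.98 and 0.98). WNT5A had 38.5 ± 0.668 FPKM in stripped serum with vehicle, 9.43 ± 0.301 with DHT and 4.48 ± 0.333 with JQ-1. ZNF706 had 13.1 ± 0.554, 23.5 ± 1.52 and 15.4 ± 0.646 FPKM in the same conditions. Each r is over 10 condition means that share their libraries.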

How the data were processed

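RNA-seq of 30 samples in 10 conditions was used. Libraries were strand-specific and read from 1 end for 50 bases. Raw read counts per RefSeq gene symbol were deposited by the authors, made with TopHat2 2.0.9 on hg19 and HTSeq, which set aside reads aligned to several places. The strand setting is not given in the sources used here. Per-transcript FPKM, which the authors made with Cufflinks 2.1.1 and normalized to length and mapped reads, were summed here per symbol.

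Groups came from the sample labels. Counts were tested with edgeR 4.0.16 (glmQLFit and glmQLFTest) in R 4.3.3 after filterByExpr (minimum count 10, minimum total 15) and TMM normalization, with only the compared groups in each fit. FPKM were tested with limma 3.58.1 on log2(FPKM + 1), keeping a gene if 3 or more samples reached 1 FPKM. Values were adjusted by Benjamini-Hochberg over all genes tested and called at 0.05. Ratios of counts carry exact binomial intervals of counting error, except a ratio against a floor of 3 counts, which has none.

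The members, gene lists and marker lists were chosen with earlier results of these data known. The rule named the 6 members, at most 2 called genes in each direction per list and comparison, of which the text gives a selection, and the 3 most alike genes. Alternatives were other count filters, DESeq2 1.42.0 (size factors or Wald test), a replicate block, a fit of all groups, a pseudocount of 0.1, no FPKM filter and leaving out each sample. The scripts were tested on simulated data. RefSeq promoters were searched on GRCh38.p14, and gene spans were taken by symbol from GENCODE 44 on GRCh37, an annotation other than that of the authors. The luminal marker list is not reported here.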

Additional observations from a re-analysis of the deposited data

Results flagged for a closer look

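In 9 tests of a difference between responses, run with limma on log2(FPKM + 1), a member passed the threshold. The enzalutamide response of UGT2B15 differed between the lines by -0.405 (MR49F minus V16D). The DHT response differed with JQ-1 from that without it by -1.03 for UGT2B11, -0.909 for UGT2B28, 0.706 for UGT2B15 and 1.2 for UGT2B17. The enzalutamide response of UGT2B17 differed with JQ-1 by 0.516. In MR49F the enzalutamide response differed between stripped and full serum by 0.625 for UGT2B11, -0.466 for UGT2B17 and 0.377 for UGT2B28. The sera were separate experiments, so serum and experiment cannot be told apart. On counts none of the members that could be tested passed in these 4 kinds of comparison. Groups of 3 samples were too small for a search for outlying samples.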

How the results depend on the processing

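The low counts limited the tests: on counts 0 to 3 of the 6 members passed the filter in a comparison, and FPKM tested 4. The numbers of members called by edgeR were as follows under other settings, of the comparisons in which they moved. With no filter on low counts they went from 0 to 1 for enzalutamide in V16D, enzalutamide in MR49F in full serum, MR49F against V16D and JQ-1, from 0 to 2 for DHT with JQ-1 against JQ-1, and from 1 to 3 for DHT against vehicle and to 2 against enzalutamide. With at least 10 counts in every sample the 3 comparisons with 1 call, all of UGT2B28, had 0, since that gene was no longer tested. A fit of all groups of a serum gave 1 for the 3 comparisons in full serum and for DHT with JQ-1 against JQ-1, where fits of the compared groups gave 0. The FPKM gave 2 for enzalutamide in V16D and for MR49F against V16D with either pseudocount and without a filter, 4 for DHT, for JQ-1, for JQ-1 added to enzalutamide and for the difference of the DHT responses, 3 for JQ-1 added to DHT and 2 for DHT with JQ-1 against JQ-1. For DHT against enzalutamide they gave 4, and 5 without a filter. For the line and stripped-serum enzalutamide comparisons they gave 1 with a pseudocount of 1 and 0 with 0.1, for enzalutamide with and without JQ-1 they gave 1, and for the 2 sera 3, but 1 with 0.1. DESeq2 size factors in edgeR and the DESeq2 Wald test moved none of these counts.

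Leaving out each sample in turn gave 0 to 1 calls on counts for enzalutamide in V16D and for MR49F against V16D, and 0 to 2 for enzalutamide in MR49F in full serum. Smaller groups admit lower counts, so more members were tested there. On FPKM the ranges were 0 to 1 for enzalutamide in MR49F in full serum, for the difference between the lines and for enzalutamide with and without JQ-1, 1 to 2 for MR49F against V16D, 0 to 2 for enzalutamide in stripped serum and 1 to 3 for the 2 sera.

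Of the single-gene values, 751 kept direction and side of the threshold, 44 lost it, 11 gained it and 32 changed sign. The sign changes listed next were of differences near 0 except for the UGT2B28 difference of the DHT responses. For MR49F against V16D, UGT2B28 was 0.15 on counts, -0.0137 on log2(FPKM + 1) with or without a filter and -0.0442 with 0.1, and lay between -0.156 and 0.424 on counts and -0.0677 and 0.0802 on FPKM without single samples. UGT2B11 there lay between -0.211 and 0.172 on counts and -0.106 and 0.0322 on FPKM. The other ranges on FPKM were -0.0205 to 0.00948 for UGT2B17 with enzalutamide in MR49F in full serum, -0.133 to 0.0266 for UGT2B11 between the lines, -0.0119 to 0.0871 for UGT2B28 with enzalutamide in stripped serum, -0.0305 to 0.0536 for UGT2B28 with enzalutamide over JQ-1, -0.0132 to 0.0219 and -0.0447 to 0.0183 for UGT2B15 and UGT2B17 with DHT over JQ-1, and -0.0794 to 0.0197 for UGT2B28 in the enzalutamide by JQ-1 difference. The UGT2B28 difference of the DHT responses was 1.10 on counts but -0.909 on log2(FPKM + 1), with or without a filter, and -2.27 with 0.1. The cause was not tested. Members tested on counts only without the filter also went the other way from log2(FPKM + 1) in places. UGT2B28 was -2.75 against 0.34 with JQ-1 and -3.06 against 0.32 with JQ-1 added to enzalutamide. UGT2B15 was -0.88 against 0.51 with enzalutamide in V16D. For the 2 sera UGT2B11 on counts was -4.31 without stripped enzalutamide 1 and 0.99 to 2.17 without another stripped-serum sample.

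Deviations of samples with the same replicate number were mostly weakly correlated. A correlation over 0.1 was found in 0 of 3 pairs in V16D and 1 of 3 in MR49F in full serum. In stripped serum it was found in 3 of 45 pairs, over 8582 genes in each case. In V16D 0 of 6 comparisons of a sample had its own number as the best match, against 3 of 6 and 43 of 90. With 3 numbers to choose from some such matches arise without pairing, and whether these shares exceed that was not tested. On counts the replicate block changed no call, and UGT2B28 with DHT was 4.34. On FPKM a block, chosen after seeing the data, gave 0 calls for enzalutamide in stripped serum (UGT2B17 adjusted p = 0.101, limma) and for enzalutamide with and without JQ-1 (UGT2B17 adjusted p = 0.0594), where there had been 1. For UGT2B17 between the 2 sera it gave 0.0754, and UGT2B11 with enzalutamide in V16D passed at 0.0343.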
